A study of Mus musculus with 6 samples.

Results

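The 8 genes described here, Cdkn1a, Mdm2, Bbc3, Trp53inp1, Gadd45a, Eda2r, Phlda3 and Ckap2, are known targets of the transcription factor p53 (Trp53) and were picked by name from a table of 11164 mouse genes. Earlier results of these data were known when they were picked. All 8 were in the table and passed the filter on low values, so each has a value in all 6 libraries and a test. Poly(A) RNA was sequenced from colonies grown in 3 dimensions from pancreas cells that had been sorted for high CD133 and low CD71, which the labels call pancreatic progenitor cells. The series asks how Glis3 (a zinc-finger transcription factor), CD133 (a membrane glycoprotein encoded by Prom1) and Wnt signalling act on the self-renewal of these cells.

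Colonies of the Glis3 knockdown carried a lentiviral mix of 5 shRNA clones against Glis3, and colonies of the CD133 knockdown carried a mix of 5 clones against CD133. Control colonies carried 1 shRNA with no mammalian target. Each group has 2 libraries, which the titles number 1 and 3. All 3 groups came from C57Bl/6 mice aged 2 to 4 months. Their cells met the virus overnight with polybrene and were then cultured for 3 weeks under puromycin in methylcellulose with Matrigel, RSPO1, nicotinamide, exendin-4, activin B, fetal calf serum and conditioned medium. All colonies therefore grew from infected, drug-selected cells, and the 2 knockdowns differ from the control in the number of shRNA clones as well as in the gene aimed at. Whether libraries 1 and 3 of a group were made from separate mice or cultures is not stated in the labels, and p-values here cover only how far such libraries lie apart, which may be technical.

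The labels checked out in the libraries. Glis3 had 13.31 and 11.96 RPKM (reads per kilobase of transcript, scaled to the size of the library) in the Glis3 knockdown, 24.75 and 24.19 RPKM in the CD133 knockdown and 26.05 and 24.22 RPKM in the control. Prom1 had 220.99 and 201.59 RPKM in the Glis3 knockdown, 88.03 and 96.00 RPKM in the CD133 knockdown and 191.25 and 203.42 RPKM in the control. Each targeted gene was thus lowest in its own knockdown but still present. All 10 duct epithelium markers examined were in the table, with Krt19 between 432.16 and 824.78 RPKM and Sox9 between 31.40 and 43.82 RPKM over the libraries. Of 10 markers each, 1 acinar (Cela1, 0.49 to 1.06 RPKM), 5 endocrine, 1 endothelial or blood (Cd68, 5.12 to 6.39 RPKM) and 0 mesenchymal markers were in the table, and the others are not analysed here. The 5 endocrine markers summed to 12.84 and 6.41 RPKM in the Glis3 knockdown, 2.81 and 1.1 RPKM in the CD133 knockdown, and 4.41 and 10.75 RPKM in the control. The 10 duct markers summed to 8868 and 7578 RPKM in the Glis3 knockdown, 7576 and 7898 RPKM in the CD133 knockdown, and 9550 and 10161 RPKM in the control. That sum is carried by Spp1, with 3127.42 to 6732.95 RPKM over the libraries, and includes Prom1 itself. By gene, 7 of the 10 duct markers had a log2 fold change above 0 in each knockdown, with medians of 0.08 in the Glis3 knockdown and 0.22 in the CD133 knockdown, where 4 rose and 2, Prom1 and Spp1, fell. The part of these marker levels in the results was not tested. Estimated depth was 25.8 to 29.2 megareads per library. Pearson's r across genes was 0.9923 to 0.9951 within groups and 0.9785 to 0.9902 between groups.

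p53 is held low in resting cells by MDM2, a ubiquitin ligase that marks it for destruction. DNA damage, oncogene activity and ribosomal stress free p53 from this control, and it then binds DNA at sites made of paired decamers and switches on genes for cell cycle arrest, DNA repair and death, and also Mdm2 itself. In the pancreas p53 is best known as a tumour suppressor that is lost in many ductal cancers. RNA of its targets reads out this program only in part, because several of them also respond to other stress pathways or to the cell cycle.

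The sequence before the transcription start is shown for the 4 start sites among the 8 genes where a match to the p53 decamer consensus was found, since p53 is known to bind DNA through that motif. The windows hold the 250 bases before a start in RefSeq on build GRCm38.p6, written 5′ to 3′ on the gene's own strand, and capitals mark the decamers.
Cdkn1a, first of 2 starts (chr17:29090729-29090978, plus strand): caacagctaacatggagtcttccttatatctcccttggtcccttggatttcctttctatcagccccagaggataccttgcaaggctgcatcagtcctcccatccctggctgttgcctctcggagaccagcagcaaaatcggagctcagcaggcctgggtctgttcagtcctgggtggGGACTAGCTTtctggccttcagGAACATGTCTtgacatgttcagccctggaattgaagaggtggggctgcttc
Mdm2 (chr10:117710759-117711008, minus strand): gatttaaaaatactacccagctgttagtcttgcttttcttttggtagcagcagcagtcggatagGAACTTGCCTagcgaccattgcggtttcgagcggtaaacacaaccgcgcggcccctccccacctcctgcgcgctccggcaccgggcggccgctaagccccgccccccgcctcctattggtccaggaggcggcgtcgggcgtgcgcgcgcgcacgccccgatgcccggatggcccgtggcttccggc
Gadd45a (chr6:67037408-67037657, minus strand): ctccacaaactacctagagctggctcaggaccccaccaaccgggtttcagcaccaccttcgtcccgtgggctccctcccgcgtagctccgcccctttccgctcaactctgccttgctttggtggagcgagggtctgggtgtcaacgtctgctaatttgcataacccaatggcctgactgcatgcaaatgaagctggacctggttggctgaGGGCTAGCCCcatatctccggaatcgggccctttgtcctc
Ckap2 (chr8:22185820-22186069, minus strand): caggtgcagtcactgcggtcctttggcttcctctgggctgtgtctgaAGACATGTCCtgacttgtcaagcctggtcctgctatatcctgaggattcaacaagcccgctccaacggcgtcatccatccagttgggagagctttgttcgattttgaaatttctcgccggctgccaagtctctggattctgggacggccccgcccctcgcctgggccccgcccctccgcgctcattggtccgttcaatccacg
Of the members, 7 had a promoter in the RefSeq table, with 10 windows in all, and Trp53inp1 is named only. The decamer consensus reads the same on both strands, and 7.13% of 32851 RefSeq windows of the same length hold it. The Cdkn1a window has 2 decamers 12 bases apart, at bases 178 to 187 and 200 to 209 counted from its 5′ end, and 0.0639% of all windows have such a pair (at most 13 bases apart). Its second decamer starts the 20-base stretch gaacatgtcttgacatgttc, which has 1 mismatch to a pair of decamers with no gap. The Ckap2 decamer starts the stretch agacatgtcctgacttgtca, with 2 mismatches to the same 20-base consensus, and 0.661% of windows have a stretch with at most 2. Farther on, the Ckap2 window has TTTGAA, the core of a motif known from promoters of cell cycle genes, at bases 150 to 155, as do 16% of windows. CCAAT, on either strand, is in the Mdm2, Gadd45a and Ckap2 windows, in 1 of 3 Bbc3 windows and in the Eda2r window, against 33.8% of all windows. No decamer was found in the second Cdkn1a window, the 3 Bbc3 windows or those of Eda2r and Phlda3, which says only that these letters are not in those bases. The closest stretch to the 20-base consensus has 5 mismatches in the Mdm2 window, where it starts at the decamer. In the Gadd45a window it has 3 and lies at bases 7 to 26, away from the decamer. The first Bbc3 window, with no decamer, also has a stretch with 3. Binding of p53 was not tested.

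**Figure D1:**
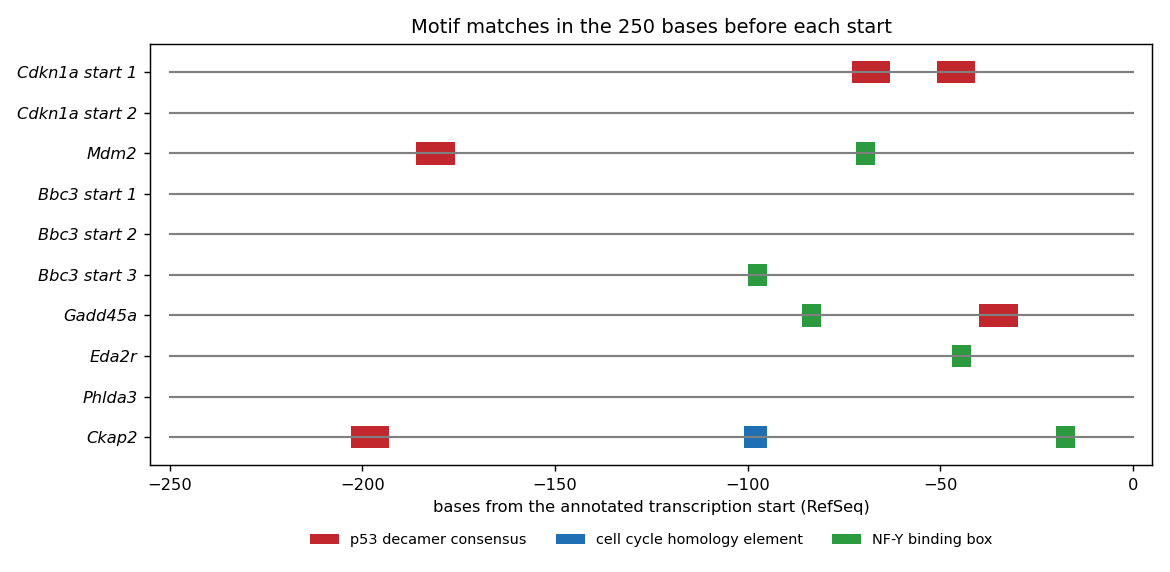
Motif matches in the 10 RefSeq windows of 7 members, each a grey line of 250 bases ending at the transcription start (horizontal axis, bases from the start). Red blocks are p53 decamers, the blue block is TTTGAA (cell cycle homology element) and green blocks are CCAAT on either strand (the box bound by NF-Y); the first Cdkn1a window has 2 decamers, and Ckap2 has all 3 motifs.

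In the control, the 4 most abundant members were Trp53inp1 with a mean of 59.2 RPKM, Cdkn1a with 54.1 RPKM, Phlda3 with 47.1 RPKM and Gadd45a with 44.3 RPKM. These levels lay at the 90.2 to 93.1 percentiles of the table. Mdm2 followed with 20.7 RPKM, then Ckap2 with 8.77 RPKM, Eda2r with 6.91 RPKM and Bbc3 with 5.49 RPKM, at the 33rd percentile. RPKM is scaled by transcript length, so these levels can be set side by side. Among neighbours in this order the control libraries of Trp53inp1 and Cdkn1a overlapped, and those of Eda2r and Bbc3 came within 0.01 RPKM of each other. The thinnest value, Bbc3 in control library 3, stands for about 297 reads at the estimated depth, and the thickest, Trp53inp1 in Glis3 knockdown library 3, for about 18356.

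**Figure D2:**
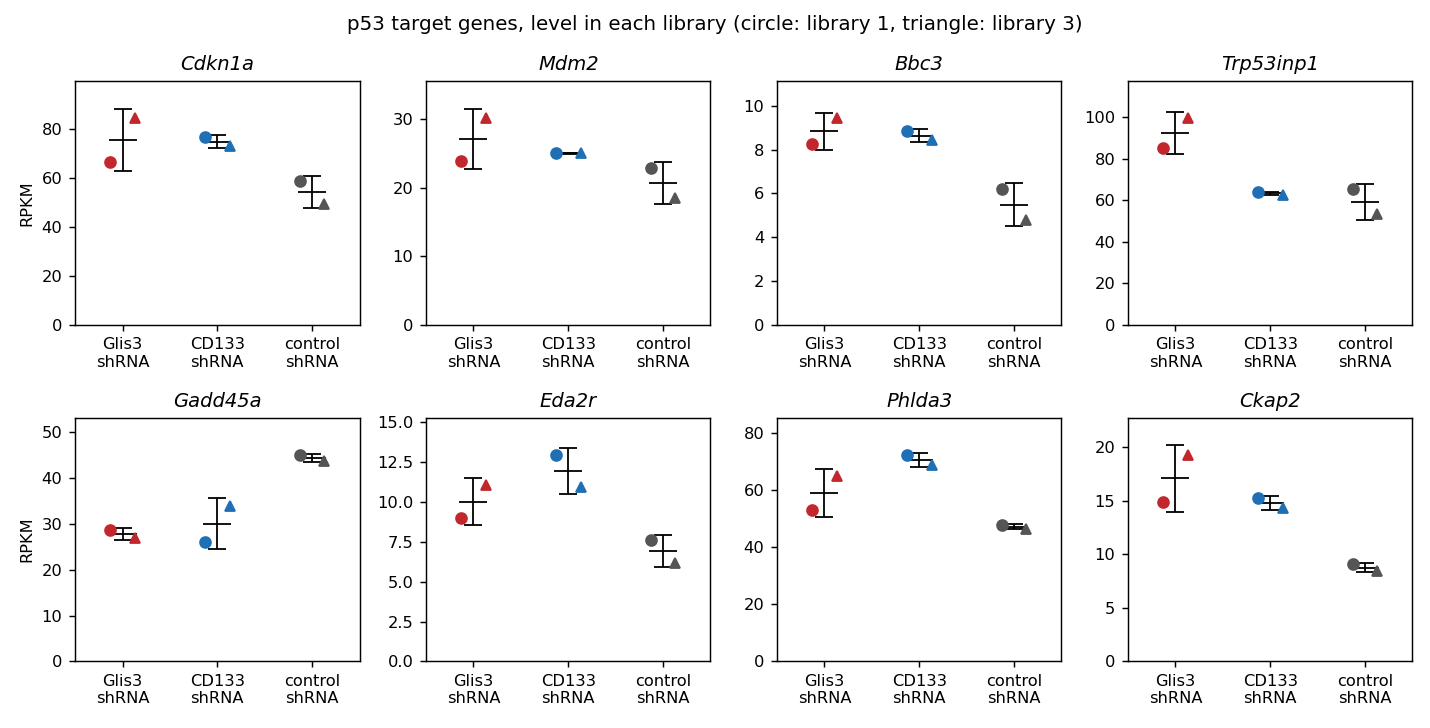
RPKM (vertical axis, from 0) of the 8 members in each library, with circles for library 1, triangles for library 3, and bars for the mean ± SD of the 2 libraries. In 7 panels both Glis3 knockdown libraries lie above both control libraries, and in the Gadd45a panel (28.72 and 26.88 against 45.02 and 43.66 RPKM) both lie below.

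Of the 8 p53 targets, 7 had more RNA in both Glis3 knockdown libraries than in either control library, and 6 of the 8 did so in the CD133 knockdown. Gadd45a went the other way in both knockdowns, and Trp53inp1 was the member whose CD133 knockdown and control libraries overlapped. Over all 10829 genes tested, 38.5% lay wholly above and 21.1% wholly below the control in the Glis3 knockdown, and 40.3% and 22.1% in the CD133 knockdown. By limma's moderated test at an adjusted p under 0.05, Ckap2, Trp53inp1 and Bbc3 rose and Gadd45a fell in the Glis3 knockdown, while the other 4 did not pass. The share of all genes called was 12.9% there, 8.39% higher and 4.53% lower. Eda2r, Ckap2, Bbc3 and Phlda3 rose and Gadd45a fell in the CD133 knockdown, and the other 3 did not pass, where 11.8% of all genes were called, 8.16% higher and 3.64% lower. The median log2 fold change of the 8 was 0.47 in the Glis3 knockdown and 0.52 in the CD133 knockdown, beside 0.04 over all genes in each. Both knockdowns are set against the same 2 control libraries, so their results are not independent.

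These calls rest on few libraries, and leaving 1 out changed which members passed. Over all genes too, fewer were called in each knockdown without a library of its own or of the control. With either control library left out, 0 members passed in both knockdowns by limma, although 8 in the Glis3 knockdown and 7 in the CD133 knockdown had an unadjusted p under 0.05 without control library 1 (23.8% and 22.6% of all genes did), and 4 and 5 without control library 3 (24.5% and 24.7% of all genes). Without Glis3 knockdown library 3 the members' median log2 fold change in that knockdown was 0.32, and without its library 1 it was 0.63. In the CD133 knockdown the members' median was 0.48 without its library 1 and 0.55 without its library 3. No member changed direction against the control in any of these fits except Trp53inp1 in the CD133 knockdown. The split of calls over all genes also moved with scaling. Of the genes called, 64.9% were higher in the Glis3 knockdown and 69.2% in the CD133 knockdown, against 44.7% and 47.7% after each library was centred on its median. The members' own calls and directions against the control were the same after centring.

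**Figure D3:**
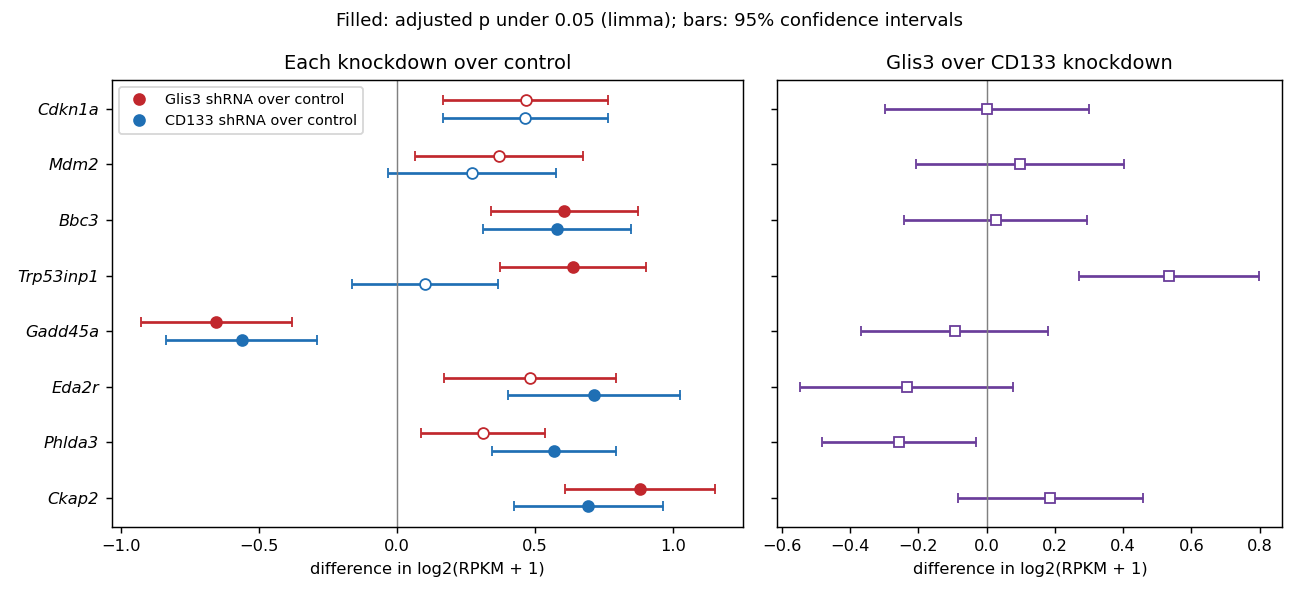
Difference in log2(RPKM + 1) of each member with its 95% confidence interval, for each knockdown over control (left, red for Glis3 and blue for CD133) and for the Glis3 over the CD133 knockdown (right). Filled points passed at an adjusted p under 0.05: 4 for the Glis3 knockdown, 5 for the CD133 knockdown and 0 between them.

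Of the arrest genes, Cdkn1a encodes p21, the inhibitor of cyclin-dependent kinases through which p53 stops the cell cycle. The gene lies at chr17:29090976-29100727 on the plus strand (all gene coordinates are GENCODE M21, GRCm38), and the start whose window has 2 decamers is its upstream one. Cdkn1a had 66.42 and 84.33 RPKM in the Glis3 knockdown, 76.74 and 72.79 RPKM in the CD133 knockdown and 58.71 and 49.45 RPKM in the control. All 4 knockdown libraries lay above both control libraries, and Glis3 knockdown library 3 was the highest. The mean level was 139% of the control in the Glis3 knockdown and 138% in the CD133 knockdown. Even so, Cdkn1a missed the threshold in both, with a log2 fold change of 0.47 (SE 0.13, 95% interval 0.17 to 0.77, adjusted p = 0.0568) and of 0.46 (interval 0.17 to 0.76, adjusted p = 0.0582). Without Glis3 knockdown library 3 the value was 0.30 in that knockdown. The 2 knockdowns differed by 0.00 (interval -0.30 to 0.30, adjusted p = 0.993).

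Gadd45a, at chr6:67035096-67037457 on the minus strand, encodes a stress protein that binds PCNA and p21 and activates the MAP kinase kinase kinase MEKK4 (Map3k4). It had 28.72 and 26.88 RPKM in the Glis3 knockdown, 26.03 and 33.90 RPKM in the CD133 knockdown and 45.02 and 43.66 RPKM in the control. Every knockdown library was below every control library, and the control libraries were close together. Gadd45a passed as lower in both. In the Glis3 knockdown it fell by 0.66 on the log2 scale (SE 0.11, adjusted p = 0.0179), to 62.7% of the control mean. The fall with CD133 knocked down was to 67.6% of the control mean, a log2 fold change of -0.56 (adjusted p = 0.0293). Its direction is opposite to the other members'. The part of the decamer in its promoter window was not tested. The annotated exons of Gadd45a share 337 bases with E230016M11Rik on the opposite strand, and those of Cdkn1a share 273 bases with AC167363.2. Whether counting used strand is not given in the sources used here, so reads from these pairs cannot be told apart.

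Phlda3, at chr1:135766119-135769136 on the plus strand, encodes a small protein that competes with the kinase AKT for membrane lipids and so restrains it. It had 53.02 and 64.93 RPKM in the Glis3 knockdown, 72.18 and 68.54 RPKM in the CD133 knockdown and 47.80 and 46.41 RPKM in the control. The 3 groups did not overlap, with the CD133 knockdown the highest. Phlda3 rose in the CD133 knockdown by 0.57 (SE 0.09, adjusted p = 0.0204). In the Glis3 knockdown the log2 fold change was 0.31 (interval 0.09 to 0.54, adjusted p = 0.0767), which did not pass, and it was 0.17 without Glis3 knockdown library 3.

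Mdm2, at chr10:117688875-117710758 on the minus strand, closes the feedback loop as the ubiquitin ligase that lowers p53. It had 23.98 and 30.16 RPKM in the Glis3 knockdown, 25.01 and 25.08 RPKM in the CD133 knockdown and 22.90 and 18.49 RPKM in the control. The knockdown libraries were all above the control libraries, but the control libraries differed by more than the gap. Mdm2 did not pass in either knockdown, and its interval in the CD133 knockdown spans 0. Its log2 fold change was 0.37 in the Glis3 knockdown (interval 0.07 to 0.67, adjusted p = 0.105). The value for the CD133 knockdown was 0.27 (interval -0.03 to 0.58, adjusted p = 0.204). The first became 0.21 without Glis3 knockdown library 3 and 0.22 without control library 3. Leaving out control library 3 or 1 put the second at 0.12 or 0.42.

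Of the death genes, Bbc3 (chr7:16308393-16318205, plus strand) encodes PUMA, a BH3-only protein that neutralises BCL2 and its relatives and starts mitochondrial apoptosis. It had 8.24 and 9.43 RPKM in the Glis3 knockdown, 8.86 and 8.42 RPKM in the CD133 knockdown and 6.18 and 4.79 RPKM in the control. The knockdown libraries sat close together and all above the control. Bbc3 rose by 0.61 on the log2(RPKM + 1) scale with Glis3 knocked down (SE 0.11, adjusted p = 0.0213). Its rise with CD133 knocked down was of nearly the same size, 0.58 (adjusted p = 0.0266). Since Bbc3 is a low gene, this scale understates its change, and the mean levels were 161% and 158% of the control.

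Trp53inp1, at chr4:11156431-11174379 on the plus strand, encodes a stress protein that takes part in p53-dependent death and in autophagy. It had 85.30 and 99.47 RPKM in the Glis3 knockdown, 63.88 and 62.69 RPKM in the CD133 knockdown and 65.28 and 53.09 RPKM in the control. The Glis3 knockdown stood apart from both other groups, while the CD133 knockdown lay within the range of the control. With Glis3 knocked down, Trp53inp1 rose by 0.64 (SE 0.11, adjusted p = 0.0178), to 156% of the control mean. In the CD133 knockdown its log2 fold change was 0.10 (interval -0.16 to 0.37, adjusted p = 0.58), and leaving out control library 3 or 1 put it at -0.04 or 0.25.

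Eda2r, at chrX:97333840-97377216 on the minus strand, encodes XEDAR, the receptor of the A2 form of ectodysplasin, a ligand of the TNF family. It had 8.99 and 11.08 RPKM in the Glis3 knockdown, 12.96 and 10.95 RPKM in the CD133 knockdown and 7.62 and 6.19 RPKM in the control. All knockdown libraries were above the control, and the 2 knockdowns overlapped. Eda2r rose in the CD133 knockdown by 0.71 (interval 0.40 to 1.03, adjusted p = 0.0238), to 173% of the control mean. In the Glis3 knockdown its log2 fold change was 0.48 (SE 0.13, adjusted p = 0.0584), which did not pass.

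Ckap2, at chr8:22168160-22185819 on the minus strand, encodes a microtubule-stabilising protein of the mitotic spindle and is known to be abundant in dividing cells. It had 14.90 and 19.28 RPKM in the Glis3 knockdown, 15.27 and 14.31 RPKM in the CD133 knockdown and 9.09 and 8.44 RPKM in the control. The gap between the knockdown and control libraries was wider than the spread inside any group, and Glis3 knockdown library 3 was again the highest. Ckap2 had the largest rise of the 8 in the Glis3 knockdown, by 0.88 (SE 0.11, adjusted p = 0.00904), to 195% of the control mean, and it rose by 0.69 in the CD133 knockdown (adjusted p = 0.0203). Spindle genes moved beside it. Over all genes, 8.39% rose in the Glis3 knockdown and 8.16% in the CD133 knockdown. Of 24 other mitotic spindle genes, 22 rose and 0 fell in the Glis3 knockdown, and 13 rose and 0 fell in the CD133 knockdown. Their median over each library's difference from the control mean was 0.58 and 0.94 in the Glis3 knockdown, 0.56 and 0.44 in the CD133 knockdown, and -0.02 and 0.02 in the control. The part of these genes in the result for Ckap2 was not tested.

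Between the knockdowns, 0 of 8 members passed by limma, where 4.06% of all genes did (1.61% higher and 2.46% lower in the Glis3 knockdown), and 2 members, Trp53inp1 and Phlda3, had an unadjusted p under 0.05, as did 21.9% of all genes. The libraries of these 2 members did not overlap, as was so for 27.9% of all genes on the higher side and 26.8% on the lower. Trp53inp1 was higher in both Glis3 knockdown libraries than in both CD133 knockdown libraries, with a log2 difference of 0.53 (interval 0.27 to 0.80, adjusted p = 0.0514), and Phlda3 was lower in both, with -0.26 (interval -0.48 to -0.03, adjusted p = 0.179). Trp53inp1 passed without Glis3 knockdown library 1, as did Ckap2. For Mdm2 the difference was 0.10, for Bbc3 0.03, for Gadd45a -0.09, for Eda2r -0.23 (interval -0.55 to 0.08) and for Ckap2 0.19. Leaving out Glis3 knockdown library 3 or 1 put Phlda3 at -0.40 or -0.11, Eda2r at -0.37 or -0.10 and Ckap2 at 0.01 or 0.36. The missed threshold does not show that the members respond alike in the 2 knockdowns.

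Most members also shared a direction between the libraries inside each group. In the Glis3 knockdown 7 of 8 were higher in library 3 than in library 1, with a median log2 difference (library 3 minus library 1) of 0.28 and a range of -0.09 to 0.35, where 45.9% of all genes were higher in library 3. Gadd45a was the exception. In the CD133 knockdown 6 of 8 were higher in library 1, where 48.9% of all genes were. The median there was -0.07, and Gadd45a had the largest difference at 0.37. In the control all 8 were higher in library 1 than in library 3, with a median of -0.25 and a range of -0.31 to -0.04, where 48.3% of all genes were. Thus the 2 control libraries differed in 1 direction over the members that the knockdowns are read by. That difference was small for Gadd45a and Phlda3 (-0.04 each) and for Ckap2 (-0.10). Over all genes, the SD of library 3 minus library 1 was 0.190 in the Glis3 knockdown, 0.155 in the CD133 knockdown and 0.154 in the control.

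**Figure D4:**
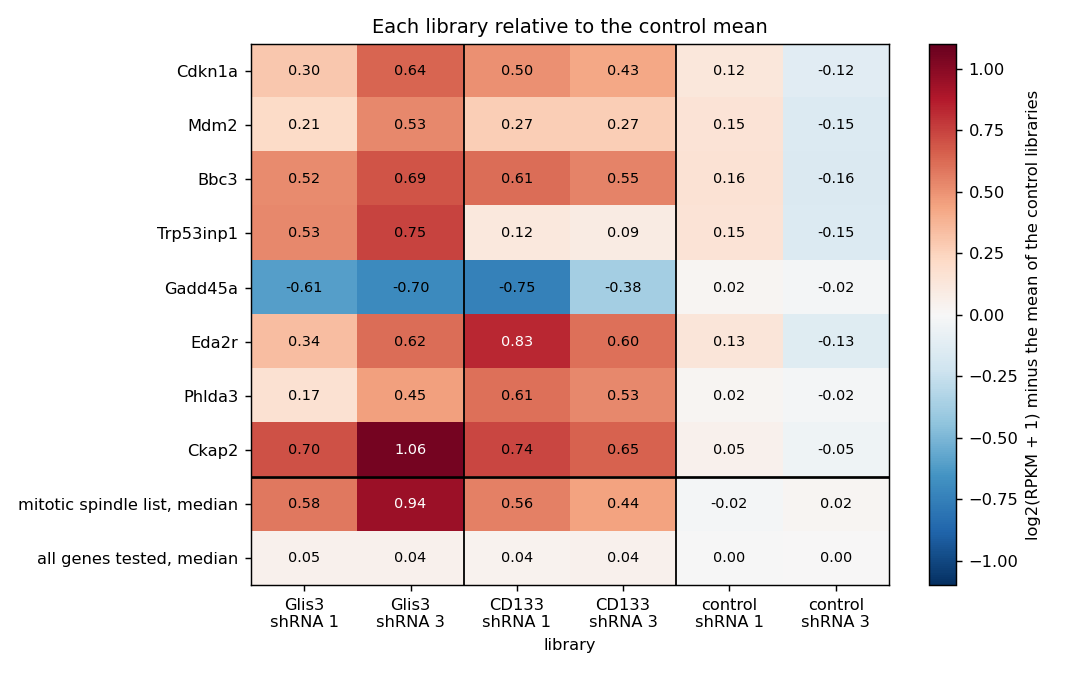
Heat map of each member's log2(RPKM + 1) minus its control mean, with a column per library and the value printed in each cell, above rows for the median of the spindle list and of all 10829 genes tested. The members' median is 0.32 and 0.63 in the Glis3 knockdown libraries, 0.55 and 0.48 in the CD133 knockdown libraries and 0.13 and -0.13 in the control libraries, while the bottom row stays at or under 0.05.

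Trp53 itself had 36.37 and 36.49 RPKM in the Glis3 knockdown, 36.82 and 36.97 RPKM in the CD133 knockdown and 33.64 and 34.05 RPKM in the control. The libraries did not overlap, but neither the log2 fold change of 0.10 in the Glis3 knockdown (adjusted p = 0.192) nor that of 0.12 in the CD133 knockdown (adjusted p = 0.136) passed. p53 is mostly set at the protein, which these data do not measure. Over all genes, 12.9% were called in the Glis3 knockdown, 8.39% higher and 4.53% lower. In the CD133 knockdown 11.8% were, 8.16% higher and 3.64% lower. The counts of this list and of those below stand beside these shares. Of 19 tested genes for p53 and its upstream regulators, 2 rose and 0 fell in the Glis3 knockdown, with a median of 0.04. Those were the checkpoint kinases Chek2 (0.38, adjusted p = 0.0224) and Chek1 (0.37, adjusted p = 0.0434). In the CD133 knockdown 0 rose and 2 fell, with a median of 0.03. The pair was Rpl5, a ribosomal protein that can bind MDM2 (-0.39, adjusted p = 0.0209), and Rchy1, a ubiquitin ligase for p53 (-0.23, adjusted p = 0.0399). In both knockdowns the count called in this list is near the share of all genes called.

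Other p53-induced genes had lower medians than the members. Members and lists were both chosen with earlier results of these data known, so this contrast is only a description. Of 23 for arrest and stress, 4 rose and 0 fell in the Glis3 knockdown, with a median of 0.22, and 7 rose and 1 fell in the CD133 knockdown, with a median of 0.11. The first median was 0.12 without control library 3, and the second was 0.20 without control library 1 and 0.21 without CD133 knockdown library 1. Ephx1, an epoxide hydrolase, rose by 0.55 and 0.42, and Dcxr, a sugar and carbonyl reductase, by 0.57 and 0.59 in the Glis3 and CD133 knockdowns. The DNA repair genes Ercc5 (0.34) and Ddb2 (0.43) rose in the Glis3 knockdown. In the CD133 knockdown the autophagy gene Trp53inp2 rose by 0.31, and Rrm2b, a p53-induced subunit of ribonucleotide reductase, fell by 0.29. Cyclin G1 (Ccng1), a classical p53 target, was past the threshold there only, with 157.06 and 140.51 RPKM against 114.14 and 109.87 RPKM in the control (0.40, adjusted p = 0.0396), and had 129.82 and 152.81 RPKM in the Glis3 knockdown (0.33, adjusted p = 0.0648). The difference of Ccng1 between the knockdowns was -0.08 (adjusted p = 0.686).

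Of 14 other p53-induced death genes, 2 rose and 1 fell in the Glis3 knockdown, with a median of 0.10, and 4 rose and 0 fell in the CD133 knockdown, with a median of 0.13, which was 0.20 without control library 3 and 0.21 without CD133 knockdown library 3. Pidd1, a death-domain protein that activates caspase-2, had 3.32 and 3.23 RPKM in the Glis3 knockdown, 3.33 and 3.33 RPKM in the CD133 knockdown and 1.78 and 1.35 RPKM in the control. It rose in both knockdowns, by 0.74 (adjusted p = 0.00877) and by 0.76 (adjusted p = 0.0125). Perp, a desmosome protein, had 69.46 and 79.45 RPKM in the Glis3 knockdown, 77.65 and 67.52 RPKM in the CD133 knockdown and 52.16 and 53.30 RPKM in the control, and rose by 0.49 and 0.45. Bax, the pore-forming death effector, and Tnfrsf10b, a death receptor, rose in the CD133 knockdown by 0.31 and 0.25, and the kinase gene Dapk1 fell by 0.28 in the Glis3 knockdown.

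Among 10 tested genes of the BCL2 family, 1 rose and 1 fell in the Glis3 knockdown. In the CD133 knockdown 0 rose and 1 fell. Bmf, a BH3-only relative of Bbc3, went opposite to it. It had 22.31 and 15.52 RPKM in the Glis3 knockdown, 23.21 and 25.63 RPKM in the CD133 knockdown and 37.33 and 37.42 RPKM in the control, a fall by 0.97 (adjusted p = 0.0130) and by 0.60 (adjusted p = 0.0486). Bak1, the other pore-forming effector, rose by 0.30 in the Glis3 knockdown. The medians of this list were 0.06 and -0.08, and its counts are near the share of all genes called.

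Genes of the cell cycle machinery that p21 acts on were tested as well. Of 25 tested cyclins, cyclin-dependent kinases, their inhibitors and E2F partners, 12 rose and 1 fell in the Glis3 knockdown and 10 rose and 0 fell in the CD133 knockdown, each with a median of 0.37. Ccnb2, a mitotic cyclin, rose by 0.86 and 0.64, Cdk2 by 0.51 and 0.40, and the S phase factor E2f1 by 0.64 and 0.59 in the Glis3 and CD133 knockdowns. Ccne1 and Ccnd2, cyclins of G1, rose by 0.70 and 0.65 in the CD133 knockdown. Cdkn2c, an inhibitor of CDK4 and CDK6, had 7.13 and 7.60 RPKM in the Glis3 knockdown, 5.68 and 6.04 RPKM in the CD133 knockdown and 3.34 and 4.04 RPKM in the control. Cdkn1a was thus above the control in the same libraries as genes that drive the cycle, which is a description of bulk RNA and does not say that the same cells held both. In bulk colonies, more RNA per cell and more cells of one kind cannot be told apart.

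In the spindle list itself, Ckap2l, the closest relative of Ckap2 by name, had 12.40 and 15.24 RPKM in the Glis3 knockdown, 10.54 and 9.57 RPKM in the CD133 knockdown and 6.98 and 6.80 RPKM in the control. Kif2c, Kif20a and Tpx2, motor proteins and a spindle assembly factor, rose by 0.75, 0.83 and 0.82 in the Glis3 knockdown. Aurka, Kif23 and Plk1, mitotic kinases and a motor of cell division, rose by 0.84, 0.61 and 0.60 in the CD133 knockdown. The list's medians were 0.78 in the Glis3 knockdown and 0.51 in the CD133 knockdown, beside 0.47 and 0.52 for the members.

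Of 13 genes of the GADD45 family and the stress MAP kinase pathway, 3 rose and 0 fell in the Glis3 knockdown and 2 rose and 0 fell in the CD133 knockdown, with medians of 0.04 and 0.05. No gene of this list passed as lower along with Gadd45a. The lowest log2 fold changes in it were -0.16 in the Glis3 knockdown and -0.32 in the CD133 knockdown. Gadd45b had 35.68 and 33.89 RPKM in the Glis3 knockdown, 28.58 and 30.51 RPKM in the CD133 knockdown and 27.26 and 29.58 RPKM in the control, a rise by 0.28 (adjusted p = 0.0373) in the Glis3 knockdown. Gadd45g had log2 fold changes of -0.10 and -0.11 and did not pass. The kinases Map2k3 and Mapk9 rose by 0.28 and 0.32 in the Glis3 knockdown and by 0.21 and 0.24 in the CD133 knockdown. The 2 calls of this list in the CD133 knockdown became 0 under median centring and under quantile normalization.

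Genes of the integrated stress response, the ATF4 pathway that is also known to induce Gadd45a, lay mostly on the lower side. Of 13, 1 rose and 1 fell in the Glis3 knockdown, with a median of -0.11, and 1 rose and 4 fell in the CD133 knockdown, with a median of -0.33. Asns, asparagine synthetase, had 35.59 and 32.57 RPKM in the Glis3 knockdown, 30.98 and 35.87 RPKM in the CD133 knockdown and 43.82 and 43.07 RPKM in the control, a fall by 0.34 and by 0.37. Ppp1r15a (GADD34), which restores translation after stress, fell by 0.61 in the CD133 knockdown, and Slc7a11, the cystine transporter, by 0.59. Eif2ak3 (PERK), a kinase that starts the response, rose by 0.33 and 0.32. In the Glis3 knockdown the count called in this list is near the share of all genes called. The part of this pathway in the fall of Gadd45a was not tested.

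Around Eda2r and Phlda3, 7 of 10 listed relatives and partners were tested, and 1 rose and 0 fell in the Glis3 knockdown and 0 rose and 1 fell in the CD133 knockdown. Phlda1 rose by 0.33 in the Glis3 knockdown (adjusted p = 0.0142), and Traf6, a signalling adaptor of the TNF receptor family, fell by 0.25 in the CD133 knockdown (adjusted p = 0.0386). Akt1, whose protein PHLDA3 restrains, had log2 fold changes of 0.15 and 0.16 and did not pass. The counts of this list are near the share of all genes called. As with the members, calls in these lists depended on single libraries. Without control library 1 none of these 9 lists had a call by limma in either knockdown, and without control library 3 the 1 call left was among the cyclins in the Glis3 knockdown. Without CD133 knockdown library 1 no list had a call in that knockdown. Without Glis3 knockdown library 3 the spindle genes had 17 calls and the cyclins 9 in that knockdown, and without CD133 knockdown library 3 they had 4 and 3 in the other. Over all genes, an unadjusted p under 0.05 was reached by 2444 to 2672 genes without a control library, and by 2012 in the CD133 knockdown without its library 1.

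**Figure D5:**
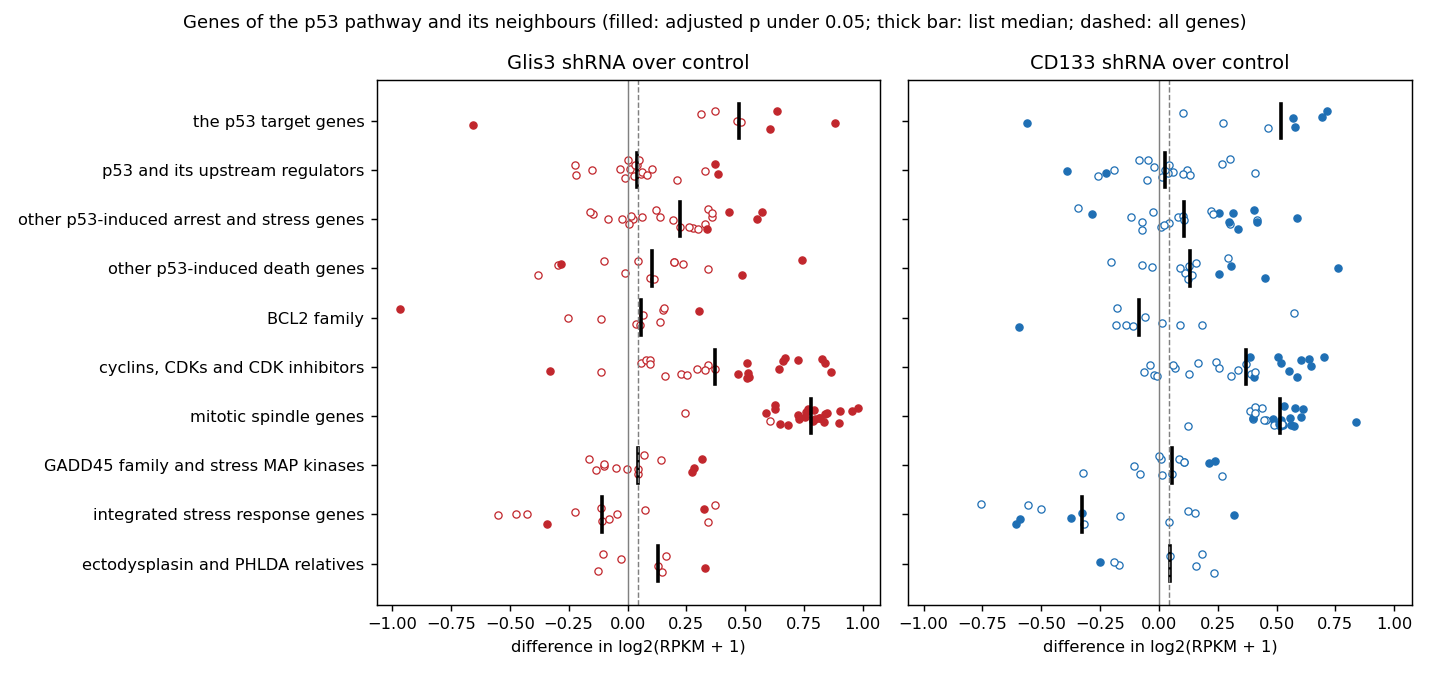
Difference in log2(RPKM + 1) over control of every tested gene of the members and of 9 other lists, with the Glis3 knockdown left and the CD133 knockdown right, filled points past the threshold, a thick bar at each list's median and a dashed line at that of all genes. The medians stand at 0.78 and 0.51 for the spindle genes, 0.47 and 0.52 for the members, and -0.11 and -0.33 for the integrated stress response genes.

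The genes whose pattern over the 6 libraries was most like each member's were found by the root mean square (RMS) difference of centred log2 values among 7719 genes. For Cdkn1a they were Lamc1, a laminin chain (RMS 0.036), and the motor gene Kif1a (0.049). Ckap2 was closest to the sorting receptor gene Sorl1 (0.058) and to Gtse1 (0.059), a spindle gene whose product binds p53. Ccnd2 was the closest gene to both Bbc3 (0.067) and Eda2r (0.061). Mdm2 was closest to Gclc, a glutathione synthesis gene, and Nktr (0.060 each), and Gadd45a to the interleukin 4 receptor gene Il4ra (0.060) and the kinase gene Dclk1 (0.061). Trp53inp1 was closest to Map3k21 (0.066) and Htra1 (0.087), and Phlda3 to the circadian gene Clock (0.068) and Aaas (0.076). The second neighbours of Bbc3 and Eda2r were Grasp (0.069) and Ptprd (0.086). No member was the nearest gene of another. With 6 libraries in 3 groups, such likeness is a description.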

How the data were processed

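RNA was sequenced in 6 libraries of 3 groups, 2 each, from a stranded poly(A) kit per the labels' protocols. The authors deposited 1 table of RPKM values with 2 decimals for 11164 genes, and every value used comes from it. Per the submitters' processing notes, the tools included bcl2fastq 2.18.0.12, HTSeq and TopHat2, with build mm10. Annotation, the total used for RPKM and strand handling were not given in the sources used here. Each gene listed reached 1 RPKM in some library, and genes outside the table are not analysed here.

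Tests ran on log2(RPKM + 1) with no rescaling, in 10829 genes whose mean over the libraries was 1 RPKM or more. In R 4.3.3, limma 3.58.1 fitted the 3 group means with moderated variances that followed a trend, on 3 residual and 3.69 prior degrees of freedom. Tests were two-sided, standard errors and 95% intervals are the moderated ones, and p-values were adjusted by Benjamini-Hochberg over all genes tested; the threshold was 0.05. Every adjusted p given comes from this fit. Fold changes on this scale understate the change of low genes. The fit was tested on simulated data. No 2 libraries held identical values.

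Depth was estimated from the steps of values under 3 RPKM in genes of up to 1200 bases: at the best depth 56.8% to 62.6% of values were whole within 0.15 read, against 30.0% by chance. Reads were not recovered, so no count test was run. Gene coordinates are from GENCODE M21 (98.5% of symbols matched) and promoter sequences from RefSeq.

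The 8 members and all lists were chosen with earlier results of these data known. From each list up to 4 genes past the threshold per knockdown were named, by smallest p, or 2 where none passed; from 7719 genes averaging 5 RPKM or more, the 2 most like each member. Ccng1, Gadd45g and Akt1, and second values of genes named in 1 knockdown, were added after their values were seen. Alternatives were other pseudocounts, filters and scalings, a replicate block, and leaving out each library.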

Additional observations from a re-analysis of the deposited data

Results flagged for a closer look

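In 8 of the 146 tested genes of the pathway lists the response differed between the knockdowns by limma's test of the Glis3 over the CD133 knockdown (5.48%, where 4.06% of all genes passed). Whether these 8 calls depend on single libraries was not examined. Over all genes 440 were called in this comparison, and 79 with the titles' numbers as a replicate block. Of the 8 genes, 4 are already named above. Ppp1r15a, which encodes the stress phosphatase subunit GADD34, had 24.67 and 22.80 RPKM in the Glis3 knockdown and 16.57 and 16.36 RPKM in the CD133 knockdown, a log2 difference of 0.50 (adjusted p = 0.0173). Rchy1, a ubiquitin ligase for p53, had 15.63 and 16.41 RPKM in the Glis3 knockdown and 12.89 and 13.04 RPKM in the CD133 knockdown, a difference of 0.29 (adjusted p = 0.0409). Phlda1, a relative of Phlda3, had 114.28 and 118.22 RPKM in the Glis3 knockdown and 95.71 and 95.14 RPKM in the CD133 knockdown, a difference of 0.28 (adjusted p = 0.0423). Trp53inp2, a relative of Trp53inp1, had 19.71 and 17.89 RPKM in the Glis3 knockdown and 24.31 and 23.69 RPKM in the CD133 knockdown, a difference of -0.34 (adjusted p = 0.0393). In each of these genes the libraries of the 2 knockdowns did not overlap. Over all genes this was so for 27.9% on the higher side and 26.8% on the lower. All 8 genes were picked by a test on the same libraries, so the lack of overlap adds no support. The other 4 were chosen after their values were seen. Bcl2l1, an anti-death gene of the BCL2 family, had 49.27 and 52.19 RPKM in the Glis3 knockdown and 39.85 and 41.42 RPKM in the CD133 knockdown (difference 0.31, adjusted p = 0.0380). Ddit4, a p53-induced inhibitor of the kinase mTOR, had 88.01 and 82.78 RPKM in the Glis3 knockdown and 107.55 and 116.99 RPKM in the CD133 knockdown (difference -0.39, adjusted p = 0.0299). The CDK inhibitor gene Cdkn2b had a difference of -0.26 (adjusted p = 0.0498) and the adaptor gene Traf3 one of -0.29 (adjusted p = 0.0408), and the libraries of these 4 genes did not overlap either.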

How the results depend on the processing

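Under pseudocounts of 0.1 and 5 RPKM, no filter, a filter at 5 RPKM, median centring and quantile normalization, the members called stayed 4 in the Glis3 knockdown and 5 in the CD133 knockdown. Between the knockdowns the count was 1 with no filter and with centring, in place of 0. Calls in the pathway lists moved with scaling. After centring, the arrest and stress genes had 2 calls in place of 4 in the Glis3 knockdown. In the CD133 knockdown they had 4 in place of 8, and the death genes 2 in place of 4. The GADD45 and MAP kinase genes there had 0 in place of 2. Centring there gave the BCL2 family 3 calls in place of 1, and the ectodysplasin and PHLDA relatives 2 in place of 1. The number of genes called in the Glis3 knockdown was 913 with the 5 RPKM filter, which tests fewer genes, in place of 1400. Higher and lower calls were 576 and 712 in the Glis3 knockdown and 559 and 612 in the CD133 knockdown after centring, and 641 and 621, and 547 and 538, after quantile normalization.

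Each library left out in turn gave 0 to 8 members called and 21 to 1334 genes in the Glis3 knockdown, 0 to 6 members and 0 to 1657 genes in the CD133 knockdown, and 0 to 2 members and 25 to 743 genes between them; the 0 genes (limma) came without either control library, with 2444 and 2672 at an unadjusted p under 0.05. A group left with 1 library was assumed to vary like the others. Over these fits the difference between the knockdowns ran from -0.17 to 0.17 for Cdkn1a, from -0.060 to 0.26 for Mdm2 and from -0.061 to 0.11 for Bbc3, lowest without Glis3 knockdown library 3 and highest without its library 1, and likewise from -0.40 to -0.11 for Phlda3, from -0.37 to -0.097 for Eda2r and from 0.011 to 0.36 for Ckap2; it ran from -0.28 to 0.091 for Gadd45a, without CD133 knockdown libraries 1 and 3. Without CD133 knockdown library 3 it was -0.036 for Cdkn1a and -0.0063 for Bbc3, and after centring -0.0025 for Cdkn1a. Trp53inp1 ran from -0.044 to 0.25 in the CD133 knockdown, without control libraries 3 and 1. The 8 changes of sign among these values were not past the threshold on either side, and the cause was not tested. Medians of lists near 0 moved by over 1.5 times as well: in the Glis3 knockdown from 0.026 to 0.089 for the regulators of p53, -0.0043 to 0.094 for the GADD45 and MAP kinase genes, 0.020 to 0.069 for the BCL2 family, 0.034 to 0.13 for the ectodysplasin and PHLDA relatives and -0.16 to -0.065 for the integrated stress response, and in the CD133 knockdown, for the first 4 of these lists, from -0.039 to 0.066, 0.013 to 0.068, -0.10 to -0.043 and 0.018 to 0.080.

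Whether the titles' numbers pair the libraries is not stated, and a single difference per group cannot decide it. Across genes, the correlation of library 3 minus library 1 was 0.0322 between the knockdowns. It was -0.372 between the Glis3 knockdown and control, and -0.428 between the CD133 knockdown and control. With the number as a replicate block, 608 genes and 4 members were called in the Glis3 knockdown, 335 genes and 1 member (Ckap2) in the CD133 knockdown, and 79 genes and 0 members between them. With the control numbers swapped, a pairing chosen after seeing the data, the counts were 1497 genes and 6 members, 1456 genes and 6 members, and 634 genes and 1 member. The thinnest member value, Bbc3 in control library 3, stands for about 297 reads, and the number of libraries limits the precision of every comparison.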
